A study of Mus musculus with 14 samples.

Results

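The 10 genes described here control whether a T cell leaves the resting state or passes through G1, the stretch of the cell cycle before DNA replication. They were taken by name from every deposited table: the CDK inhibitors Cdkn1a, Cdkn1b, Cdkn2c and Cdkn2d, the D-type cyclins Ccnd2 and Ccnd3, the growth factor-responsive transcription factor Myc, the antiproliferative genes Btg1 and Btg2, and the kinase gene Plk3. All 10 were listed in all 14 libraries, among 15319, 19825 and 15216 genes in the tables of the 3 experiments, and all 10 passed the filter on low values (a mean of at least 1 FPKM) in each. D-type cyclins bind CDK4 and CDK6 and start the phosphorylation of Rb, which releases E2F factors to switch on S-phase genes. The INK4 inhibitors block CDK4 and CDK6, while the CIP/KIP inhibitors p21 and p27 bind cyclin-CDK complexes more broadly. In T cells p27 is high at rest and is degraded after activation, Myc drives the growth that precedes division, and Btg1 and Btg2 maintain quiescence by promoting the decay of mRNA.

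RNA was sequenced from mouse CD8+ T cells that infiltrated E.G7 tumors, an ovalbumin-expressing lymphoma derived from the EL4 line. In the first experiment, tumor-infiltrating lymphocytes (TILs) were sorted as Bcl6+, DN and TIM-3+ populations from Bcl6-RFP reporter mice 21 days after subcutaneous tumor inoculation; all 3 populations carried the reporter genotype, and the meaning of DN is not stated in the labels. The other 2 experiments used OT-I cells, which carry a transgenic receptor for ovalbumin and were taken out of E.G7 tumors roughly 8 days after they had been transferred. One compared Prdm1-overexpressing with control OT-I cells and the other Bcl6-overexpressing with control OT-I cells, and overexpressing and control cells were transferred together. The sources used here do not give the vector, its promoter or the age of the mice. Each of the 7 groups held 2 libraries. Whether the pair came from separate animals is not stated in the labels, and p-values therefore measure only the spread between these samples, which may be technical.

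Total counts per library ranged from 18309162 to 22322079. Levels within 1 gene are in CPM, the count per 1000000 counts of a TMM-scaled library, and differences are log2 fold changes with the standard error (SE) and the Benjamini-Hochberg adjusted p of edgeR's quasi-likelihood test over all genes; "called" means an adjusted p under 0.05. Levels of different genes are compared only as FPKM, which is scaled by gene length. Bcl6 averaged 418 CPM in Bcl6+, 92.8 in DN and 16.6 in TIM-3+ TILs, and Havcr2, the gene of TIM-3, averaged 46.1, 189 and 1338 CPM. Bcl6-overexpressing OT-I cells held 94.2 and 67.6 CPM of Bcl6 against 4.11 and 3.84 in their controls. Prdm1-overexpressing cells held 158 and 195 CPM of Prdm1 against 110 and 90.6, a difference that was not called (log2 fold change 0.81, SE 0.19, adjusted p = 0.077). Bcl6 in these cells was 19.9 and 20.7 CPM against 7.79 and 8.96, also not called (1.28, SE 0.3, adjusted p = 0.083, edgeR). Havcr2 was 1192 and 1349 CPM against 724 and 813, also not called (0.73, SE 0.15, adjusted p = 0.057, edgeR). All 8 CD8 T cell markers were detected in every group; they summed to 6583 to 6667 CPM in Bcl6+, 7351 to 7411 in DN and 9981 to 10079 in TIM-3+ TILs, and to 5519 to 7821 in the OT-I libraries. Summed macrophage and monocyte markers were 241 to 274 CPM in Bcl6+, 150 to 153 in DN and 55.4 to 71.5 in TIM-3+ TILs, with all 10 detected in each group. In the same order, stromal and endothelial markers summed to 84.4 to 110, 77.7 to 91.2 and 38.2 to 46.3 CPM, erythroid markers to 44.7 to 48.7, 74.4 to 78.0 and 21.1 to 27.8, lymphoma and thymocyte markers to 47.4 to 53.8, 43.0 to 54.3 and 33.2 to 37.2, and B cell markers to 23.3 to 25.7, 8.07 to 11.9 and 1.08 to 1.28. Dendritic cell markers summed to 45.1 to 52.8, 63.2 to 72.3 and 55.6 to 57.9 CPM. CD4 T cell markers summed to 2.91 to 3.91, 10.3 to 11.7 and 7.16 to 9.15, so both lists were lowest in Bcl6+ cells. Neutrophil markers summed to 1.44 to 4.19, 0.606 to 1.04 and 0.638 to 1.67. The part of these markers in the TIL differences was not tested. As these are bulk samples, fewer cells of a type and less RNA per cell cannot be told apart.

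The first comparison asked how Bcl6+ TILs differed from TILs bearing TIM-3, a receptor of exhausted T cells. Plk3 was lowest in Bcl6+ cells, which also held less Cdkn1a and Cdkn2c, less of both D-type cyclins, and more Cdkn1b, Myc and Btg2. Thus 8 of the 10 genes were called, where 38.7% of all 9748 genes tested were; 3 were higher, against a background of 19.1%, and 5 lower, against 19.6%. The libraries of the groups did not overlap for 9 of the 10, against 68.8% of all genes. The median log2 fold change was -0.29 over the 10 genes and 0.01 over all genes. Against DN cells, Bcl6+ cells held less Plk3, Ccnd2, Btg1 and Cdkn1a. These 4 were called, where 14.2% of genes were; 4 were lower, against 7.71%, and 0 higher by edgeR, against 6.52%, with 0 members higher at an unadjusted p under 0.05 and 0 higher by DESeq2. Libraries did not overlap for 6 of the 10, against 54.4%, and the median was -0.25 against 0.00. Against the same DN libraries, TIM-3+ cells held more Cdkn1a, Cdkn2c and Ccnd3 and less Cdkn1b, Myc, Btg1 and Btg2. These 7 were called, where 28.1% of genes were; 3 were higher, against 14.9%, and 4 lower, against 13.2%, and libraries did not overlap for 9 of the 10, against 65%. The 3 comparisons share libraries, since each TIL group enters 2 of them.

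**Figure D1:**
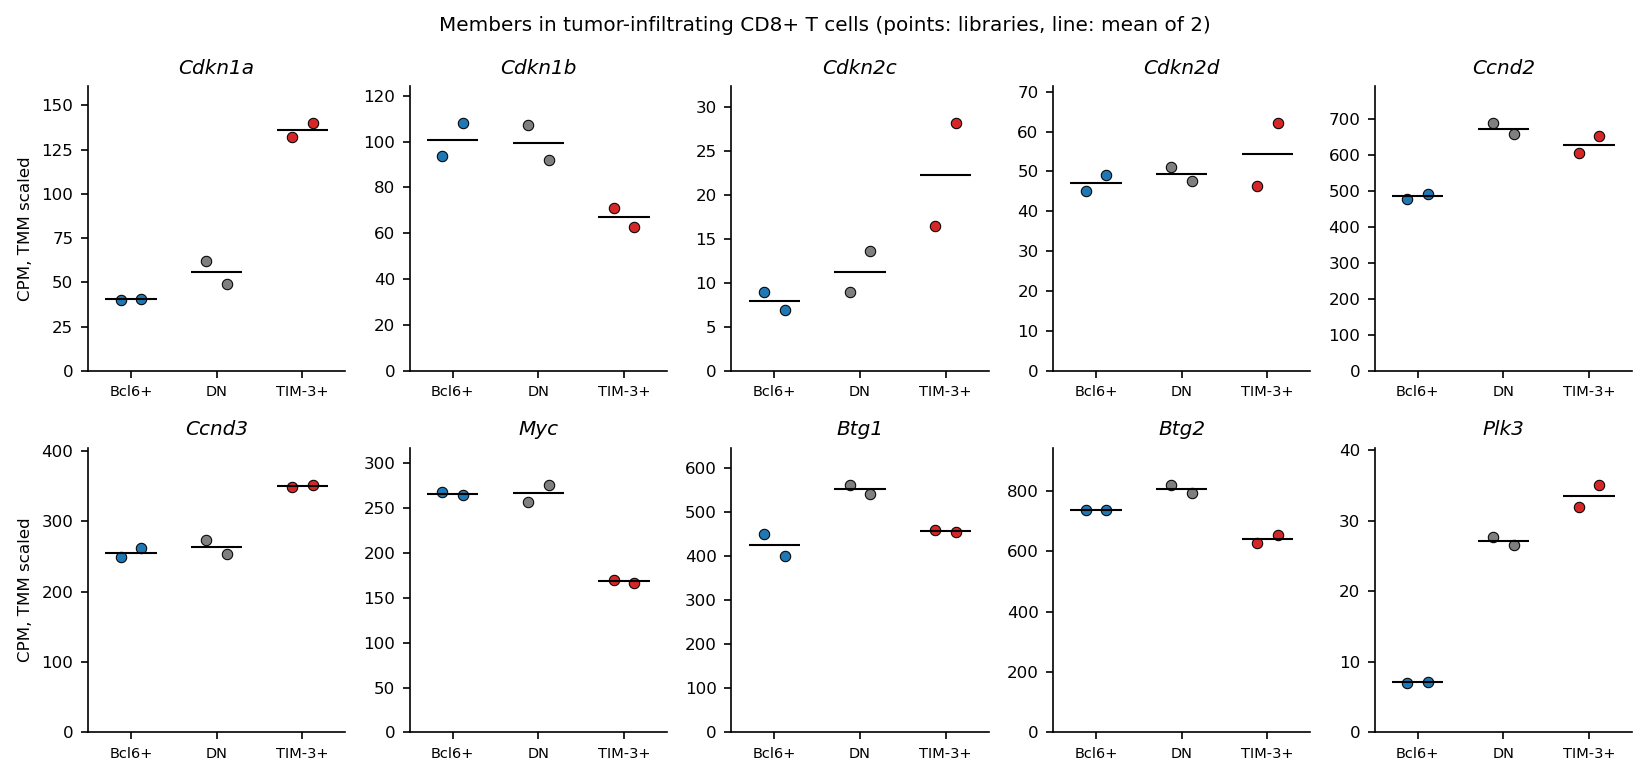
CPM of the 10 genes in the 6 TIL libraries, with each point 1 library and each line the mean of 2. Plk3 is near 7 CPM in both Bcl6+ libraries and above 26 in the other 4, and Cdkn1a is above 130 CPM only in the TIM-3+ libraries.

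Cdkn1a, which encodes p21 (ENSMUSG00000023067, GRCm38 chromosome 17, 29090976 to 29100727, plus strand), measured 40.1 and 40.8 CPM in Bcl6+, 62.2 and 49.2 in DN and 132 and 140 in TIM-3+ TILs. No group overlapped another, and the TIM-3+ libraries stood above all others. Bcl6+ cells held 3.36-fold less than TIM-3+ cells (log2 fold change -1.75, SE 0.14, adjusted p = 2.9e-07, edgeR), and TIM-3+ cells 2.44-fold more than DN cells (1.29, SE 0.14, adjusted p = 9.8e-06). The step from DN to Bcl6+ was smaller (-0.46, SE 0.14, adjusted p = 0.042, edgeR) and was lost in 7 of 15 alternative analyses. It was lost without either Bcl6+ library (adjusted p = 0.11 without replicate 1 and 0.1 without replicate 2) and without DN replicate 1, where it was -0.28 (adjusted p = 0.39).

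Cdkn1b, which encodes p27 (ENSMUSG00000003031, chromosome 6, 134920401 to 134925513, plus strand), took the opposite order. It measured 93.6 and 108 CPM in Bcl6+, 107 and 92.0 in DN and 71.2 and 62.6 in TIM-3+ TILs. Bcl6+ and DN libraries overlapped, and both lay above TIM-3+. The TIM-3+ level was below Bcl6+ (log2 fold change of Bcl6+ over TIM-3+ 0.59, SE 0.13, adjusted p = 0.0029, edgeR) and 1.49-fold below DN (-0.57, SE 0.13, adjusted p = 0.005; 0.082 without DN replicate 1). Bcl6+ and DN cells differed by 0.02 on the log2 scale, with a 95% interval from -0.27 to 0.30.

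The CIP/KIP transcripts stood in opposite order in different sorted populations. On the FPKM scale the ratio of Cdkn1a to Cdkn1b was 0.486 to 0.549 in Bcl6+, 0.685 to 0.744 in DN and 2.37 to 2.87 in TIM-3+ TILs. Cdkn1b was the higher transcript in Bcl6+ and DN cells and Cdkn1a in TIM-3+ cells. In the OT-I libraries the ratio lay between 7.51 and 16.2; it was not tested against that of the TILs, since the tables were processed separately. Within the Bcl6 experiment controls had 13.1 to 16.2 and Bcl6-overexpressing cells 7.51 to 11.7; within the Prdm1 experiment the ranges were 13.4 to 14.1 and 11.3 to 13.4.

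**Figure D2:**
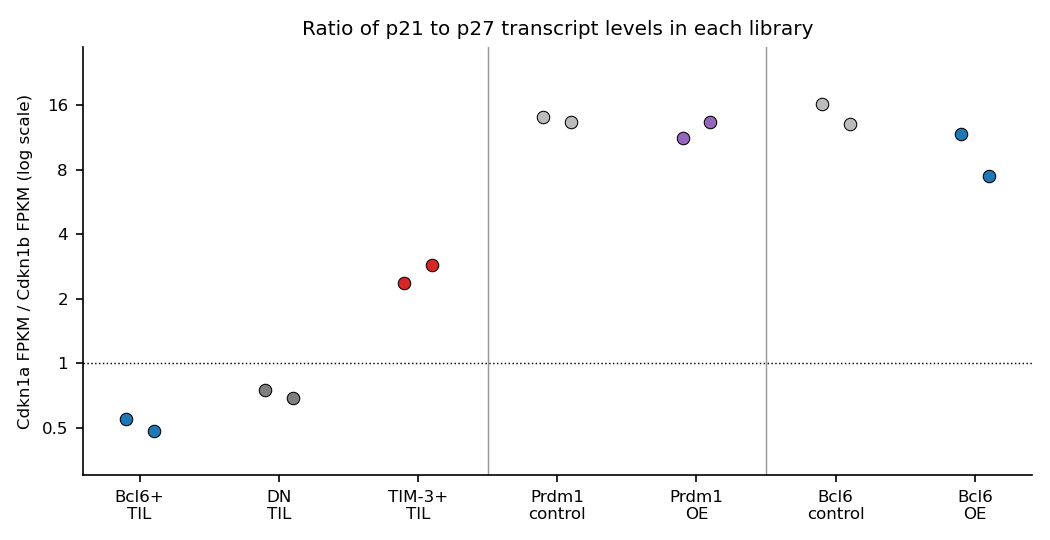
Ratio of Cdkn1a FPKM to Cdkn1b FPKM in each of the 14 libraries, on a log axis, with the dotted line at equal levels and vertical lines between experiments; OE stands for overexpressing. The Bcl6+ and DN TIL libraries lie below 1, the TIM-3+ TIL libraries between 2.37 and 2.87, and the OT-I libraries above 7.

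Of the INK4 genes, Cdkn2c (p18) varied between TIL populations and Cdkn2d (p19) did not pass the test in any comparison of the study. Cdkn2c measured 8.96 and 6.94 CPM in Bcl6+, 9.01 and 13.6 in DN and 16.5 and 28.2 in TIM-3+ TILs. The TIM-3+ libraries were highest but differed from each other by more than the Bcl6+ libraries differed from DN. The difference between Bcl6+ and TIM-3+ cells was -1.49 (SE 0.34, adjusted p = 0.0032, edgeR), or -1.06 (adjusted p = 0.051) without TIM-3+ replicate 2. TIM-3+ against DN cells gave 0.98 (SE 0.33, adjusted p = 0.042), which was lost without either DN library (0.72, adjusted p = 0.29, without replicate 1; 1.31, adjusted p = 0.068, without replicate 2) and without TIM-3+ replicate 2 (0.55, adjusted p = 0.37). It was lost in 7 of 15 alternatives in all, the others being total counts (0.82, adjusted p = 0.081), log2(TPM + 1) (0.74, adjusted p = 0.064), no filter (1.02, adjusted p = 0.05) and filterByExpr (1.02, adjusted p = 0.053). Cdkn2d, at 45.2 and 49.0, 51.1 and 47.5, and 46.4 and 62.1 CPM in the same order, overlapped between all 3 groups. On the FPKM scale Cdkn2d was the more abundant, from 3.76 to 12.0 times Cdkn2c across the TIL libraries.

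The D-type cyclins did not move together. Ccnd2 measured 478 and 492 CPM in Bcl6+, 688 and 657 in DN and 605 and 652 in TIM-3+ TILs, with no overlap between any 2 groups and the Bcl6+ libraries lowest. It was lower in Bcl6+ than in DN cells (log2 fold change -0.47, SE 0.06, adjusted p = 8.8e-05, edgeR) and than in TIM-3+ cells (-0.37, SE 0.06, adjusted p = 1.9e-04), while TIM-3+ and DN cells differed by -0.10 (95% interval -0.23 to 0.03), a difference called with total counts (-0.27, adjusted p = 0.0036) and with log2(TPM + 1) (-0.28, adjusted p = 0.016). Ccnd3 measured 249 and 262, 274 and 253, and 348 and 352 CPM in the same order, with Bcl6+ and DN overlapping and TIM-3+ above both. TIM-3+ cells exceeded DN cells in Ccnd3 by 0.41 (SE 0.07, adjusted p = 6.9e-04, edgeR) and lower in Bcl6+ than in TIM-3+ cells (-0.45, SE 0.07, adjusted p = 1.9e-04). Under limma on log2(TPM + 1), which moved the median of all genes by 0.26 between Bcl6+ and TIM-3+ cells and by -0.18 between TIM-3+ and DN cells, the Bcl6+ to TIM-3+ differences of Ccnd2 and Ccnd3 shrank to -0.11 (adjusted p = 0.28) and -0.19 (adjusted p = 0.12), and the Ccnd3 difference between TIM-3+ and DN cells to 0.22 (adjusted p = 0.094). Ccnd3 shares exon sequence with Bysl on the other strand, which was listed at 46.2 to 64.6 CPM in the TIL libraries; whether reads were counted by strand is not given in the sources used here.

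Myc (ENSMUSG00000022346, chromosome 15, 61985391 to 61990374, plus strand) separated the TIM-3+ population from the rest. It measured 268 and 264 CPM in Bcl6+, 257 and 276 in DN and 170 and 167 in TIM-3+ TILs. Bcl6+ and DN cells overlapped and their difference had a 95% interval from -0.16 to 0.16. Bcl6+ cells held 1.58-fold more than TIM-3+ cells (log2 fold change 0.66, SE 0.08, adjusted p = 9.9e-06, edgeR), and TIM-3+ against DN cells gave -0.66 (SE 0.08, adjusted p = 1.8e-05). Of 22 genes listed as targets of Myc, edgeR called 10 lower and 0 higher when TIM-3+ cells were set against DN cells. Of all genes it called 13.2% lower and 14.9% higher there. At an unadjusted p under 0.05, 2 of the 22 targets were higher, and DESeq2 called 10 lower and 0 higher. The targets had a median of -0.25 against -0.01 over all genes. The lower targets included Odc1, the entry enzyme of polyamine synthesis (-1.15, adjusted p = 2.0e-05), and Npm1, a nucleolar chaperone (-0.50, adjusted p = 4.2e-05). Between Bcl6+ and TIM-3+ cells 4 of the 22 were higher and 3 lower, where 19.1% and 19.6% of all genes were. The split became 13 and 1 with total counts and 14 and 1 with log2(TPM + 1), scalings that moved all genes as well. The median of the 22 was 0.14 against 0.01 over all genes. With total counts these medians were 0.33 and 0.2, and with log2(TPM + 1) they were 0.4 and 0.26.

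The antiproliferative pair was highest in DN cells. Btg1 measured 449 and 400 CPM in Bcl6+, 562 and 541 in DN and 460 and 455 in TIM-3+ TILs. DN libraries stood above all others, by -0.38 for Bcl6+ over DN (SE 0.07, adjusted p = 0.0013, edgeR) and -0.27 for TIM-3+ over DN (SE 0.07, adjusted p = 0.0075; 0.089 without DN replicate 1). Bcl6+ and TIM-3+ cells differed in Btg1 by -0.11 (adjusted p = 0.22), which became -0.19 and was called (adjusted p = 0.044) without Bcl6+ replicate 1. Btg2 measured 736 and 737, 820 and 792, and 626 and 654 CPM in the same order, without overlap between any 2 groups. TIM-3+ cells were lowest, with a difference from DN of -0.33 (SE 0.05, adjusted p = 3.0e-04, edgeR) and of Bcl6+ over TIM-3+ of 0.20 (SE 0.05, adjusted p = 0.0077; 0.08 without TIM-3+ replicate 1), and Bcl6+ against DN cells gave -0.13 (adjusted p = 0.13). Btg2 was the most abundant of the 10 genes per length, at 223 to 281 FPKM across the TIL libraries, with Btg1 at 71.0 to 100.

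Plk3, a Polo-like kinase induced by stress and mitogens (ENSMUSG00000028680, chromosome 4, 117128655 to 117133963, minus strand), had the largest fold changes of the 10 genes in both comparisons of Bcl6+ TILs. It measured 7.05 and 7.13 CPM in Bcl6+, 27.7 and 26.6 in DN and 32.0 and 35.1 in TIM-3+ TILs. Both Bcl6+ libraries were far below the other 4, which lay close together. Bcl6+ cells held 4.73-fold less than TIM-3+ cells (log2 fold change -2.24, SE 0.22, adjusted p = 2.3e-06, edgeR) and 3.83-fold less than DN cells (-1.94, SE 0.22, adjusted p = 3.6e-05). Between Bcl6+ and DN cells its log2 fold change ranked 58 from the lowest of 9748 genes. TIM-3+ and DN cells did not overlap but were not called apart (0.30, 95% interval -0.14 to 0.75). The other Polo-like kinases followed other orders: Plk2, also an early response gene, averaged 362 CPM in Bcl6+, 204 in DN and 136 in TIM-3+ TILs and was called in all 3 comparisons (1.41, 0.82 and -0.59 for Bcl6+ over TIM-3+, Bcl6+ over DN and TIM-3+ over DN), while the mitotic kinase gene Plk1 averaged 21.1, 34.6 and 131 CPM. Summed levels of 15 stress and dissociation genes, a list that marks handling, were 9409 to 9480 CPM in Bcl6+, 8498 to 8609 in DN and 8200 to 8292 in TIM-3+ TILs. Between Bcl6+ and DN cells 4 of the 15 were called higher and 4 lower, against 6.52% and 7.71% of all genes. Between Bcl6+ and TIM-3+ cells 4 were called higher and 6 lower, against 19.1% and 19.6%. The part of these genes in the Plk3 differences was not tested.

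By mean level, DN cells lay between the other populations for 6 of the 10 genes and above both for Ccnd2, Btg1 and Btg2, while for Myc DN and Bcl6+ cells had the same mean to 3 digits; over all genes tested DN was between for 52.0%, highest for 24.5% and lowest for 23.5%. The wider cell cycle lists set the frame for these values. All 16 proliferation genes were lower in Bcl6+ than in TIM-3+ cells (median -1.80 against 0.01 over all genes), all 16 exceeded their DN level in TIM-3+ cells, and 10 of 16 fell below it in Bcl6+ cells. Top2a, which untangles DNA for division, averaged 147 CPM in Bcl6+, 194 in DN and 586 in TIM-3+ TILs. TIM-3+ cells, in which p21 and p18 transcripts were highest, also had the highest mean of Top2a. Of 19 tested genes of the Rb, E2F and DREAM list, 8 were lower and 1 higher in Bcl6+ than in TIM-3+ cells, against 19.6% and 19.1% of all genes. The repressor genes E2f7 (-2.98) and E2f8 (-1.68) showed the smallest p. Rbl2, which encodes the Rb relative p130, averaged 547 CPM in Bcl6+, 333 in DN and 519 in TIM-3+ cells and was called against DN in both (0.72 and 0.64). Ccnd1, the remaining D-type cyclin gene, averaged 32.9, 28.8 and 3.37 CPM and was 9.76-fold higher in Bcl6+ than in TIM-3+ cells (adjusted p = 1.4e-07, edgeR). Of 10 G1 cyclins and kinases, Ccnd1 among them, 3 were called higher and 3 lower in Bcl6+ than in TIM-3+ cells. The lower ones included Ccne2 (-0.98) and Ccne1 (-0.74). Cks1b, a cofactor of the ligase that degrades p27, averaged 29.6, 46.9 and 115 CPM and was called in all 3 comparisons (-1.96, -0.66 and 1.29 in the order given for Plk2), whereas edgeR called no other of the 6 tested genes of that list. DESeq2 called 1 more, higher in Bcl6+ than in TIM-3+ cells, and for TIM-3+ against DN 2 were lower with total counts and 3 with log2(TPM + 1).

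Among 16 factors of T cell quiescence, 5 were higher and 3 lower in Bcl6+ than in TIM-3+ cells (5 and 1 with total counts, 6 and 0 with log2(TPM + 1)). Of all genes 19.1% were higher and 19.6% lower. The list median was 0.09 against 0.01 over all genes, 0.28 against 0.20 with total counts and 0.34 against 0.26 with log2(TPM + 1). Bach2, a repressor that restrains effector differentiation, averaged 131 CPM in Bcl6+, 84.2 in DN and 24.7 in TIM-3+ cells (Bcl6+ over TIM-3+ 2.40, adjusted p = 2.6e-08, edgeR), and Foxp1 (0.94) and Foxo1 (1.44) were also higher, while Ets1 (-0.45) was lower. Bach2 was the only one of the 16 that edgeR called between Bcl6+ and DN cells (0.63, adjusted p = 0.0078), where DESeq2 called 2 higher. In that comparison edgeR called 14.2% of all genes. Cdkn1a is itself a target of p53. Of 16 other tested genes of the p53 target list, which counts Trp53 itself, 5 were higher and 1 lower in Bcl6+ than in TIM-3+ cells. Of all genes 19.1% were higher and 19.6% lower. With total counts 9 of the 16 listed genes were higher and 0 lower. Their median was 0.12 against 0.01 over all genes, or 0.31 against 0.20 with total counts. Fas (2.26), Trp53inp1 (0.84) and Sesn1 (1.06) were higher in Bcl6+ cells, and Ccng1 (-0.37) was lower. The part of p53 in the Cdkn1a difference was not tested.

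The second experiment asked what changed in OT-I cells that overexpressed Prdm1, which encodes the repressor Blimp-1. Btg2 and Plk3 rose and the other 8 genes were not called, where 1.82% of 9947 genes tested were called, 1.52% higher and 0.302% lower. Libraries did not overlap for 3 of the 10, against 51.1% of all genes, and the median log2 fold change was 0.01 over the 10 genes and 0.02 over all. Btg2 measured 871 and 993 CPM in control and 2894 and 3008 in Prdm1-overexpressing cells. The overexpressing libraries were close to each other and far above both controls, a 3.17-fold rise (log2 fold change 1.66, SE 0.14, adjusted p = 0.004, edgeR) that ranked 8 of 9947 by p. In FPKM the gene went from 311 and 360 to 941 and 1042, and it was rank 32 of all genes by mean level over the 4 libraries. Plk3 measured 33.1 and 44.2 CPM in control and 140 and 119 in overexpressing cells, again without overlap, a 3.35-fold rise (1.75, SE 0.21, adjusted p = 0.012, edgeR). Both calls rested on having both control libraries: without control replicate 1 no member and 7 genes in all were called (Btg2 1.57 and Plk3 1.55, adjusted p = 0.12 for each), and without control replicate 2 no member and 3 genes (1.76 and 1.97, adjusted p = 0.18 for each), a single control library being assumed to vary like the overexpressing ones. DESeq2, limma and the other alternatives that kept both control libraries called both genes.

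The remaining values were close to the controls or scattered between libraries. Myc was 330 and 338 CPM in control and 259 and 286 in overexpressing cells, without overlap, and was not called (-0.29, SE 0.14, adjusted p = 0.32, edgeR). Cdkn1a was 197 and 171 against 204 and 129, Cdkn1b 17.9 and 16.3 against 23.1 and 12.3, and Cdkn2d 135 and 108 against 138 and 56.9 CPM, so that in each the overexpressing libraries spread across the control values. Overexpressing replicate 2 was the lowest of the 4 libraries for these 3 genes, and without overexpressing replicate 1 Cdkn2d was called lower (-1.10, adjusted p = 0.016). Cdkn2c was 10.5 and 4.33 CPM in control and 14.4 and 7.05 in Prdm1-overexpressing cells, overlapping and not called (0.54, SE 0.55, adjusted p = 0.65). Ccnd2 (-0.03, 95% interval -0.39 to 0.34), Ccnd3 (-0.03, -0.39 to 0.32) and Btg1 (0.07, -0.39 to 0.52) differed by less than the spread between libraries. For the lists that follow, edgeR called 1.82% of all 9947 genes, DESeq2 called 586 genes, and 19.3% of genes had an unadjusted p under 0.05. At such a share a count of 0 says little about a list of this size. By edgeR 0 of 16 proliferation genes were called (4 were higher at an unadjusted p under 0.05, and 0 were called by DESeq2). The same held for 0 of 9 tested G1 cyclins and kinases (2 higher at an unadjusted p under 0.05, 0 by DESeq2). Of 22 Myc targets edgeR called 0, with 8 lower at an unadjusted p under 0.05 and 2 lower by DESeq2. Of 15 stress and dissociation genes it called 0, with 2 higher and 7 lower at an unadjusted p under 0.05 and 4 lower by DESeq2. In the Rb, E2F and DREAM list Rbl1, the gene of p107 (1.04, adjusted p = 0.033), and Lin54 (1.21, adjusted p = 0.042) rose. In the quiescence list edgeR called 1 gene of 16, Tob2, a relative of Btg2 (-0.86, adjusted p = 0.047), and DESeq2 1 higher and 1 lower. Plk2, which like Plk3 is an early response gene, averaged 400 CPM in control and 674 in overexpressing cells (0.75, adjusted p = 0.064). Stress and dissociation genes summed to 14715 to 15611 CPM in control libraries and 14530 to 14572 in overexpressing ones, and summed macrophage and monocyte markers 437 to 490 and 182 to 316, with all 10 detected in both. Dendritic cell markers summed to 43.3 to 46.8 and 63.4 to 65.4 CPM, and lymphoma and thymocyte markers to 34.4 to 61.0 and 83.0 to 85.6. Most of the lymphoma and thymocyte sum was 1 gene, Cd1d1, with means of 43.3 CPM in control and 73.3 in overexpressing cells. The part of these lists in the Btg2 and Plk3 values was not tested.

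Since Btg2 and Plk3 rose together in this experiment, their promoters are shown, each 250 bases before to 50 after the RefSeq start site on GRCm38.p6, at chr1:134079106-134079405 and chr4:117133914-117134213, both on the minus strand and written in the direction of transcription. Capitals mark the cAMP response element TGACGTCA and its half-site TGACG, searched on both strands; the full element contains a half-site on each strand.
Btg2: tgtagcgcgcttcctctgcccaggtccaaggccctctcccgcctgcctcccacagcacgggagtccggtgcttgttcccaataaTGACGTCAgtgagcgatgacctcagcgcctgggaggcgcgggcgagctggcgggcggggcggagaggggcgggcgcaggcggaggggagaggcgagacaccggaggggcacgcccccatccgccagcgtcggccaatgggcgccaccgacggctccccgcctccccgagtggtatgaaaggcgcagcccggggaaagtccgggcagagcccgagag
Plk3: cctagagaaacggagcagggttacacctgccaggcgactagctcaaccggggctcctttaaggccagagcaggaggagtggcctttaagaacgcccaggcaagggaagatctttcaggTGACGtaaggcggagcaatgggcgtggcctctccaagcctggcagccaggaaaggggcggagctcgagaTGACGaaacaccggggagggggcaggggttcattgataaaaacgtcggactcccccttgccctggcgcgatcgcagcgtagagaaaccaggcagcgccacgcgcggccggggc
The Btg2 window holds 1 full element, its first base at -166 from the start site, and the Plk3 window holds 2 half-sites, at -132 and -63. Of 27025 genes in the promoter table, 2.03% hold the full element and 23% a half-site. Promoters of 8 of the 10 genes were found in the table, in 11 windows; 1 of the 8 held the full element and 5 a half-site (Cdkn1b, Ccnd3, Btg1, Btg2 and Plk3). The letters TTCNTAGAA, the core of the BCL6 motif, and AGNGAAAG, the core of the BLIMP-1 motif, were in none of the 11 windows and in 1.25% and 9.91% of all genes, and the E-box CACGTG bound by MYC was in 1 (Cdkn2c) and in 8.09%. The element TGACGTCA and its half-site TGACG were both added to the search after the values of Btg2 and Plk3 were seen. These matches describe letters only.

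**Figure D3:**
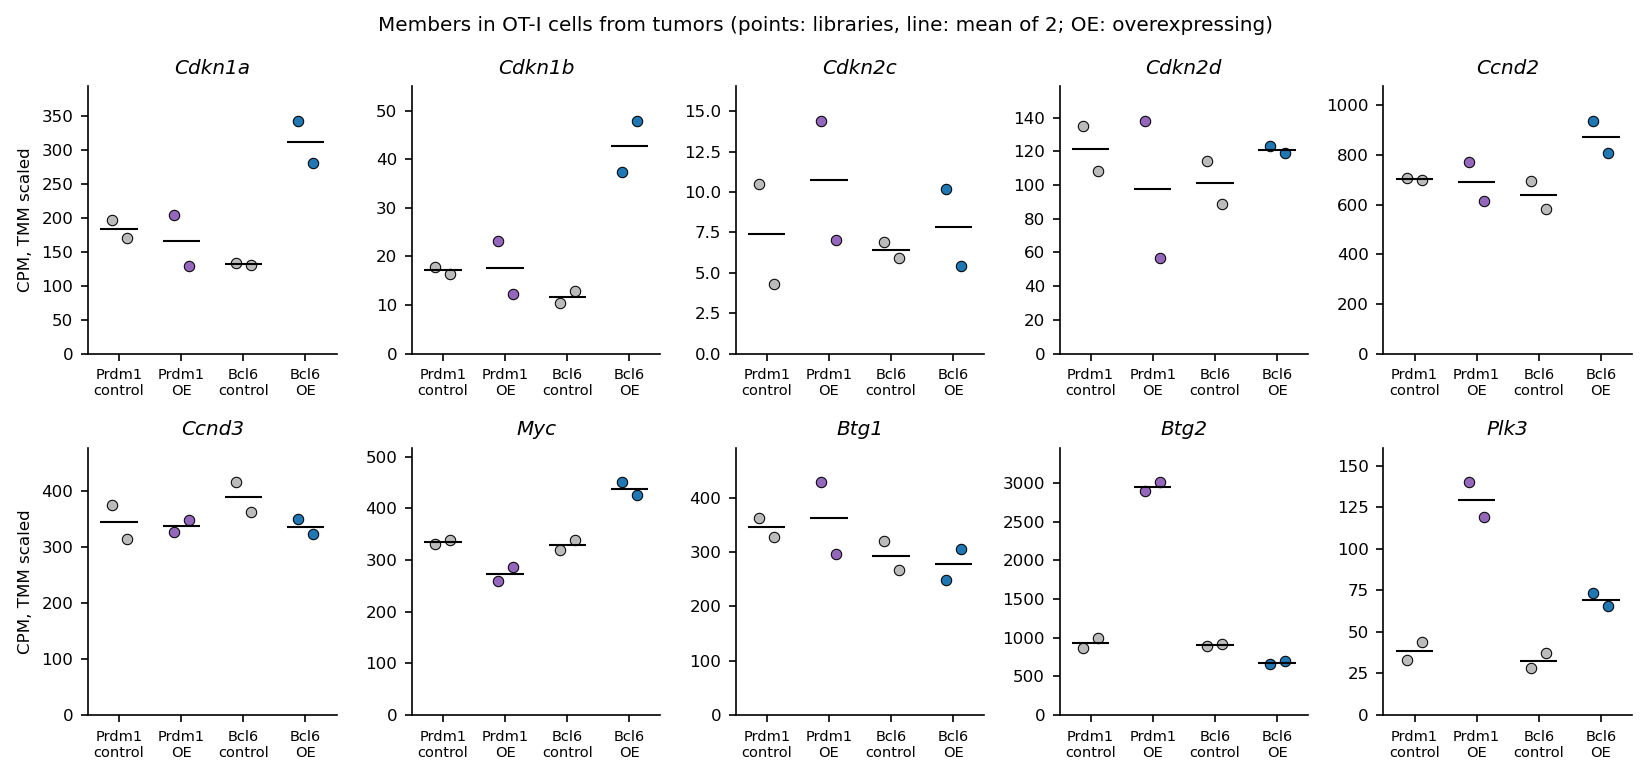
CPM of the 10 genes in the 8 OT-I libraries, with each point 1 library, each line the mean of 2, and OE standing for overexpressing. Btg2 stands at 2894 and 3008 CPM in the Prdm1-overexpressing libraries, and Cdkn1a and Cdkn1b are highest in the Bcl6-overexpressing libraries.

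The third experiment asked what changed in OT-I cells that overexpressed Bcl6. The CIP/KIP inhibitor genes and Plk3 rose most, Ccnd2 and Myc rose less, and Btg2 fell. Of the 10 genes 6 were called, where 48.9% of 9669 genes tested were called; 5 were higher, against 25.5%, and 1 lower, against 23.4%. Libraries did not overlap for 8 of the 10, against 75.7% of all genes, and the median log2 fold change was 0.35 against 0.00 over all genes. Fold changes in this experiment ran with the composition of the transcripts, with a correlation across genes of 0.40 with GC content and -0.34 with log2 length (-0.18 to 0.10 in the other comparisons; genes are not independent replicates). With both trends removed, an alternative chosen after seeing the data, 8 of the 10 were called, 6 higher and 2 lower.

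Cdkn1b measured 10.5 and 12.8 CPM in control and 37.4 and 47.9 in Bcl6-overexpressing cells. The groups were far apart, a 3.66-fold rise (log2 fold change 1.87, SE 0.25, adjusted p = 1.8e-06, edgeR), or 2.36 with GC and length trends removed. Cdkn1a measured 133 and 131 CPM in control and 343 and 281 in overexpressing cells, without overlap, a 2.36-fold rise (1.24, SE 0.17, adjusted p = 2.6e-06, edgeR). Both were called in all 14 alternative analyses. Cdkn1a was thus higher in the cells that overexpressed Bcl6, while among the TILs it was lowest in the cells sorted for Bcl6; the difference between the 2 experiments was not tested. Cdkn2c, at 6.89 and 5.92 against 10.2 and 5.41 CPM, overlapped (0.28, SE 0.38, adjusted p = 0.57). Cdkn2d, at 114 and 88.9 against 123 and 119 CPM, did not overlap and was not called (0.26, SE 0.18, adjusted p = 0.26); with GC and length trends removed it was -0.43 (adjusted p = 0.0075).

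Plk3 measured 28.0 and 37.4 CPM in control and 73.6 and 65.4 in overexpressing cells. It rose 2.13-fold without overlap (1.09, SE 0.21, adjusted p = 2.2e-04, edgeR). The rise was called in all 14 alternatives, that with GC and length trends removed among them, and ranged from 0.59 to 1.31. As with Cdkn1a, the direction was the reverse of that between Bcl6+ and DN or TIM-3+ TILs. Btg2 measured 893 and 912 CPM in control and 660 and 697 in overexpressing cells, without overlap, and fell by 0.41 on the log2 scale (SE 0.17, adjusted p = 0.044, edgeR). That call was made in 6 of 14 alternatives. It was lost with GC and length trends removed (-0.20, adjusted p = 0.15) and without either control library (adjusted p = 0.2 and 0.23). Btg1, at 320 and 266 against 249 and 306 CPM, overlapped (-0.08, SE 0.17, adjusted p = 0.73), and with the trends removed it was 0.37 (adjusted p = 0.0091).

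Ccnd2 measured 696 and 581 CPM in control and 937 and 809 in Bcl6-overexpressing cells, and Myc 319 and 339 against 450 and 426 CPM. Neither overlapped. Ccnd2 rose by 0.45 (SE 0.17, adjusted p = 0.035, edgeR) and Myc by 0.41 (SE 0.16, adjusted p = 0.04), and both calls were lost with total counts (0.39, adjusted p = 0.052, and 0.35, adjusted p = 0.076), without control replicate 1 (0.58, adjusted p = 0.089, and 0.36, adjusted p = 0.3), without control replicate 2 (0.32, adjusted p = 0.38, and 0.45, adjusted p = 0.19) and under limma on log2(TPM + 1) (0.11, adjusted p = 0.63, and 0.07, adjusted p = 0.76), a scaling that moved the median of all genes by -0.34. Ccnd3 measured 416 and 363 against 350 and 323 CPM, without overlap, and was not called (-0.21, SE 0.17, adjusted p = 0.31); with GC and length trends removed it was called lower (-0.58, adjusted p = 1.6e-04).

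**Figure D4:**
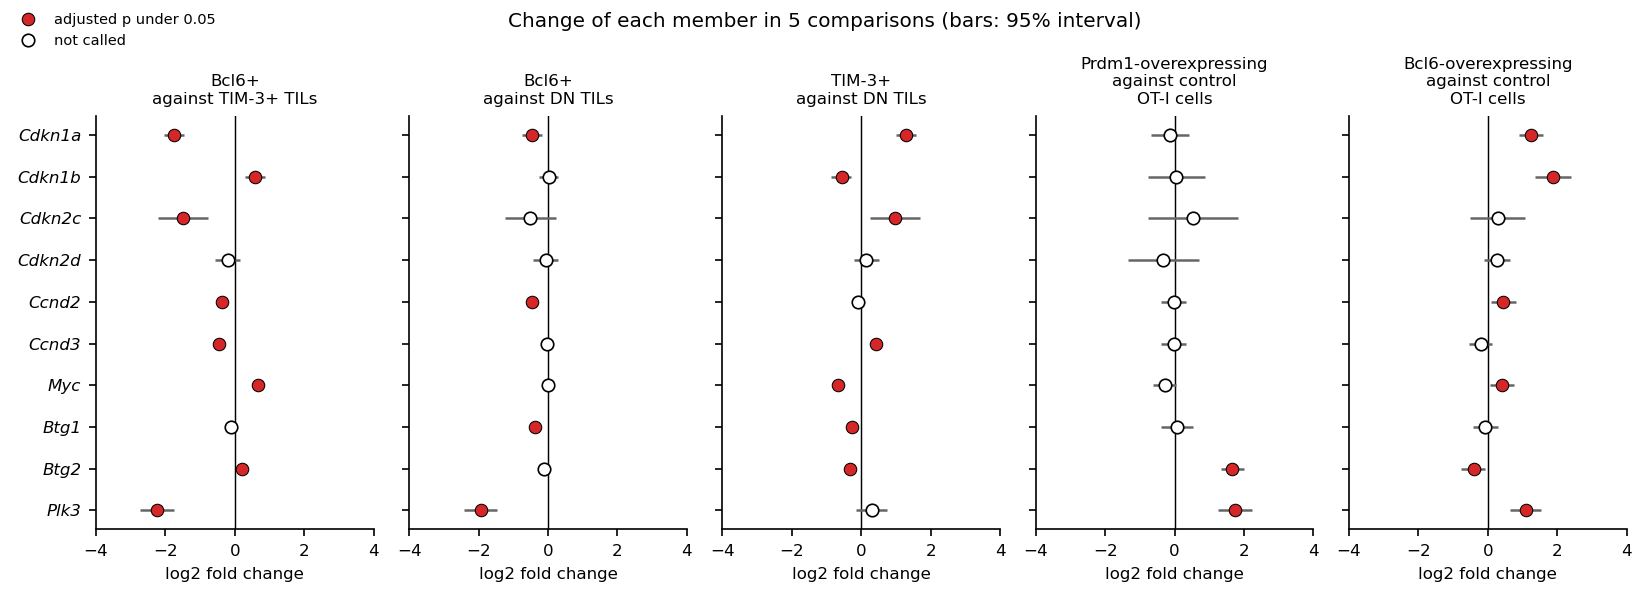
Log2 fold change of each gene in the 5 comparisons, first-named over second-named group, with bars for the 95% interval of the edgeR fit, filled points for an adjusted p under 0.05 and open points for the rest. Plk3 lies at -2.24 and -1.94 in the comparisons of Bcl6+ TILs and at 1.75 and 1.09 in the overexpression experiments.

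In the same comparison, which called 25.5% of all genes higher and 23.4% lower, the pathway lists moved as follows. Of 16 proliferation genes 10 fell and 1 rose in Bcl6-overexpressing cells (median -0.48 against 0.00 over all genes), among them Rrm2, a subunit of ribonucleotide reductase (-1.10, adjusted p = 1.1e-05, edgeR), and the mitotic cyclin gene Ccnb1 (-1.08, adjusted p = 3.3e-05). Of 9 tested G1 cyclins and kinases 3 fell (2 rose and 2 fell with GC and length trends removed), Ccne2 (-1.99), Cdk2 (-0.97) and Cdk7 (-0.63). Of 22 Myc targets 10 rose and 1 fell, with a median of 0.40 (15 and 1 with GC and length trends removed, 5 and 2 with log2(TPM + 1)); Srm, of spermidine synthesis, averaged 33.6 CPM in control and 241 in overexpressing cells (2.84, adjusted p = 1.2e-10), and Odc1 213 and 488 CPM (1.19, adjusted p = 2.9e-06). Of 6 tested genes of p27 degradation 4 rose and 1 fell, with a median of 1.54 (3 and 0, median 0.23, with GC and length trends removed), and with Cdc34 (2.46), Rbx1 (1.69), Cks1b (1.80) and Ube2r2 (1.38) those with the smallest p. Transcripts of p27 and of these parts of its degradation pathway were higher in the same libraries. In the quiescence list 5 of 16 rose and 2 fell, where 25.5% and 23.4% of all genes did, or 3 and 4 with log2(TPM + 1); Klf2, which keeps naive T cells at rest, averaged 12.4 CPM in control and 58.2 in overexpressing cells (2.23, adjusted p = 4.6e-08). Of 16 tested genes of the p53 target list 3 rose and 4 fell, also near the background (3 and 9 with log2(TPM + 1)). Bax (1.80) and Bbc3 (1.84) were higher and Pmaip1 (-1.75) and Ccng1 (-1.01) lower.

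Markers of other cells moved with Bcl6 overexpression. Summed macrophage and monocyte markers were 152 to 156 CPM in control and 557 to 651 in overexpressing cells, with all 10 detected in both groups. Neutrophil markers were 1.75 to 5.65 and 29.5 to 30.4 CPM, S100a8 being at 0 in the controls, and erythroid markers 0.991 to 1.18 and 15.7 to 21.0 CPM, with 4 of 5 at 0 in the controls. Other lists were lower with Bcl6. Stromal and endothelial markers summed to 114 to 124 CPM in control and 64.3 to 68.1 in Bcl6-overexpressing libraries. Of these Pecam1 averaged 78.9 and 64.8 CPM, and Col1a1 22.5 and 0.711. Lymphoma and thymocyte markers summed to 49.5 to 55.3 and 20.2 to 20.4, Rag1 being at 0 in the latter. Nearly all of that sum was 1 gene, Cd1d1, with means of 49.5 and 20.3 CPM. Dendritic cell markers summed to 29.2 to 32.8 and 14.4 to 19.3. Stress and dissociation genes summed to 12653 to 13078 and 11640 to 12811 CPM. The part of these in the values of the 10 genes was not tested.

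**Figure D5:**
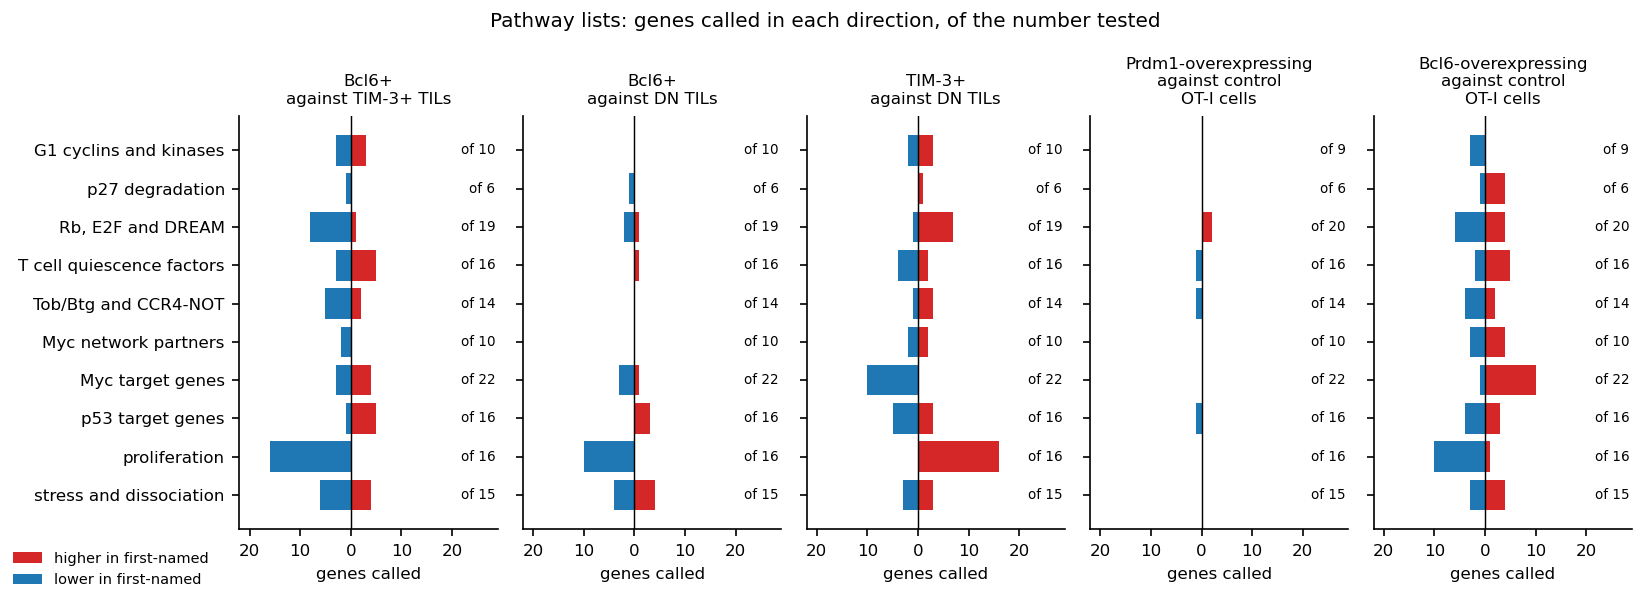
Number of genes called higher (red) and lower (blue) in the first-named group for 10 pathway lists in the 5 comparisons, with the number tested at the right of each bar. The proliferation list shows 16 of 16 lower in Bcl6+ than in TIM-3+ TILs, and the Myc target list 10 higher in Bcl6-overexpressing OT-I cells.

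The genes with the most similar profiles were sought over the 14 libraries among 8802 genes tested in all 3 experiments, with log2 CPM centred within each experiment; the libraries share their group structure and composition, so the values are a description. Cdkn1a was most like Foxn3 (Pearson r = 0.97), Runx2 (0.96) and Cks1b (0.95), Cdkn1b like Acot2 (0.96), Myc like Id3, Rere and Gtf2i (0.97 each), Btg2 like Taf2 and Bag4 (0.96 each), and Plk3 like Rnf166 (0.93). For Cdkn2d the closest was Ndufaf5 (0.97) and for Cdkn2c Mpdu1 (0.89). Btg1 had the weakest best match, Wdr53 (0.85), with Ccnd2 at 0.90 (Isg20) and Ccnd3 at 0.91 (Racgap1). Among the 10 genes themselves the highest value was 0.71, between Cdkn1a and Ccnd2, and 0 of the 10 had another member as its best match.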

How the data were processed

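Per the file headers, the authors deposited raw counts and FPKM (fragments per kilobase of gene and depth) for each library. Per the submitters' processing notes, mm10 was the build; for TILs they list Bowtie2, Subread, featureCounts, edgeR with DESeq2, and for OT-I cells HISAT2, RSEM, featureCounts with DESeq2. The sources used here give no versions, roles or strand use. Summed counts below 20 do not occur in the TIL and Bcl6 tables. Counts were tested with edgeR 4.0.16 in R 4.3.3 (quasi-likelihood, TMM, two-sided, Benjamini-Hochberg adjusted p of 0.05 over all genes tested), where mean FPKM reached 1. One fit held all 6 TIL libraries; OT-I experiments were fitted separately. SE was the size of the log2 fold change divided by the root of F. Groups came from the labels; the numbers are not stated to pair samples, so fits were unpaired. DESeq2 1.42.0, limma 3.58.1 on log2(FPKM + 1), log2(FPKM + 0.1) and log2(TPM + 1), RLE or total-count scaling, other filters, a replicate block and left-out libraries were alternatives. The script was tested on simulated data. The 10 genes and the lists were chosen with earlier results of these data known, so no list was tested as a set. All 10 genes were described in every comparison. The lists of other CDK inhibitors, Myc network partners, and Tob/Btg and CCR4-NOT genes were not described in the text, and the other lists not in every comparison. Genes named from a list were among the 4 called genes with the smallest p, or, where none was called, the 2 with the smallest p. Gene positions are from GENCODE M21 and promoters from RefSeq.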

Additional observations from a re-analysis of the deposited data

How the results depend on the processing

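Across 5 comparisons the 10 genes gave 27 calls. All 27 kept their direction under every alternative run, 13 stayed called under all of them, and 14 were lost under at least 1; of the 23 uncalled differences 6 were called under at least 1. Leaving out each library in turn gave 7 to 9 called members for Bcl6+ against TIM-3+ TILs, 3 to 4 for Bcl6+ against DN, 4 to 7 for TIM-3+ against DN (4 without DN replicate 1), 0 to 3 for Prdm1 and 3 to 6 for Bcl6 overexpression (3 without either control library), and 744 to 1221, 1706 to 2233 and 3 to 659 called genes for Bcl6+ against DN, TIM-3+ against DN and Prdm1 overexpression; where a group was left with 1 library, it was assumed to vary like the others. The 181 genes called for Prdm1 overexpression became 391 with RLE scaling, 402 with total counts, 78 without a filter, 56 with filterByExpr, 586 with DESeq2, 111 with log2(FPKM + 1), 86 with log2(FPKM + 0.1), 614 with log2(TPM + 1) and 426 with GC and length trends removed, an alternative chosen after seeing the data; the cause was not tested. Total counts raised the share of higher calls between Bcl6+ and TIM-3+ TILs from 49.3% to 69.9% and log2(TPM + 1) to 75.7%, lowered that between TIM-3+ and DN TILs from 53% to 28% and 26.2%, and log2(TPM + 1) lowered that for Bcl6 overexpression from 52.2% to 31.2%.

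With the replicate number as a block, Prdm1 overexpression gave 1698 called genes, and Bcl6 overexpression 4 called members, without Myc and Btg2. In Bcl6+ against DN TILs the same 4 members stayed called, with Cdkn1a at the threshold (adjusted p = 0.05 after rounding, edgeR). The numbers are not stated to mark shared animals, and deviations of replicate 1 correlated at 0.02 to 0.04 between TIL groups, 0.27 with Prdm1 and -0.05 with Bcl6 overexpression.

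Reversals touched only differences that were not called in the main analysis. With log2(TPM + 1), in TILs, Cdkn2d read 0.08, 0.01 and -0.06 (Bcl6+ against TIM-3+, Bcl6+ against DN, TIM-3+ against DN), Btg1 0.16 (Bcl6+ against TIM-3+) and Ccnd3 0.04 (Bcl6+ against DN); with total counts Btg1 read 0.08 (Bcl6+ against TIM-3+) and Cdkn2d -0.03 (TIM-3+ against DN). In Bcl6+ against DN, Cdkn1b read -0.01 without a filter and -0.03, and Cdkn2d 0.01, with GC and length trends removed. For Prdm1 overexpression Cdkn1b read -0.06, -0.10, -0.08, -0.08, -0.11, -0.06, -0.01 and -0.13 under total counts, no filter, filterByExpr, log2(FPKM + 1), log2(FPKM + 0.1), log2(TPM + 1), the replicate block and GC and length correction, Btg1 read -0.04, -0.09, -0.06, -0.05, -0.06 and -0.10 under the same without the TPM scale and the block, and Ccnd3 read 0.11 with GC and length correction. For Bcl6 overexpression Cdkn2c and Cdkn2d read -0.11 and -0.08 with log2(TPM + 1) and -0.18 and -0.43 with GC and length correction, and Btg1 read 0.03, 0.02, 0.01, 0.01 and 0.37 without a filter, with filterByExpr, both FPKM scales and GC and length correction. Leaving out single libraries gave ranges that crossed 0 for Cdkn2d (-0.40 to 0.02, Bcl6+ against TIM-3+; -0.09 to 0.33, TIM-3+ against DN), Cdkn1b (-0.09 to 0.13) and Ccnd3 (-0.10 to 0.02) in Bcl6+ against DN, for Cdkn1a (-0.51 to 0.08), Cdkn1b (-0.47 to 0.36), Cdkn2c (-0.07 to 1.31), Cdkn2d (-1.10 to 0.11), Ccnd2 (-0.20 to 0.06), Ccnd3 (-0.16 to 0.10) and Btg1 (-0.22 to 0.24) with Prdm1, and for Cdkn2c (-0.25 to 0.67) and Btg1 (-0.23 to 0.06) with Bcl6 overexpression. Cdkn2c had 4.33 to 28.2 CPM across the libraries; with 2 libraries a group, differences smaller than the intervals given were not detectable.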
